A study of Mus musculus with 12 samples.

Results

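Acetylation of histone H4 at lysine 16 (H4K16ac) is placed and removed by a small set of enzymes, and the RNA of 10 of them and their partners was followed here in hematopoietic stem cells (HSCs). The genes were the acetyltransferase Kat8, the MSL complex genes Msl1, Msl2, Msl3 and Msl3l2, the NSL complex genes Kansl1, Kansl2 and Kansl3, and the deacetylases Sirt1 and Sirt2. They were taken by gene symbol, with no value used in the rule, and all 10 were found among the 22548 genes of the expression table.

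Kat8 (also called MOF) is the main acetyltransferase of H4K16 in mammals, and it works as the catalytic subunit of either of the MSL and NSL complexes. In the MSL complex, Msl1 is the scaffold, Msl2 is a ubiquitin ligase and Msl3 is a chromodomain subunit, and this complex acts on H4K16. The NSL complex is built on the scaffold Kansl1 with Kansl2 and Kansl3 and sits mainly at promoters of housekeeping genes. Sirt1 and Sirt2 are NAD-dependent deacetylases that can remove the mark, and Sirt2 resides largely in the cytoplasm. The study asked how ageing and the inhibition of the GTPase Cdc42 bear on this mark in HSCs, and the RNA of its enzymes addresses whether their expression moved with either.

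RNA sequencing was done on 12 libraries of long-term HSCs sorted from C57BL/6 mice. The groups were young (2 to 4 months old, n = 4, replicates 2 to 5), aged (20 to 26 months old, n = 5, replicates 0 and 2 to 5) and aged cells treated with CASIN, an inhibitor of Cdc42 (aged CASIN-treated, n = 3, replicates 1 to 3). According to the labels, cells of every group were held for 16 h at 37 °C in 3% O2 and 5% CO2, in HBSS with fetal bovine serum, and the treated cells received 5 µM CASIN. Each library came from a pool of sorted cells. The labels give at least 200 cells per library, and the paper states a higher number. The number of mice behind each library is not stated, and p-values therefore measure the spread between these libraries. No line, clone or transgene was involved, and no genotype other than wild type is named.

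The deposited values are log2 expression values that the authors brought to 1 common distribution, and the genes without signal share the lowest value of each library, between 0 and 0.67. A gene above that lowest value is called detected here. Depth is unknown. Detection ran from 6078 to 9673 genes in young libraries, from 11463 to 17621 in aged ones, and it was 6845, 20013 and 7288 in the CASIN-treated replicates 1, 2 and 3, so that CASIN-treated replicate 2 stood apart from its group. The smallest value a detected gene could take reached 3.62 in a young library and 2.94 in a CASIN-treated one, but only 1.21 in an aged one. Of 10 stem cell markers, Meis1 was detected in 12 of 12 libraries, whereas Kit and Ly6a, whose proteins were used in the sort, were each detected in 4 of 12 and in none of the 4 young libraries. Of 6 T cell markers, Cd3d and Cd8a were detected in 12 of 12 libraries and the other 4 (Cd3e, Cd3g, Cd8b1 and Lck) in 4 to 6. Before the sort, lineage-positive cells had been removed with antibodies that included anti-CD5 and anti-CD8a. In bulk libraries, fewer cells of a type and less RNA per cell cannot be told apart.

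Msl3l2 is a second gene related to Msl3, and the likeness of their RNA bears on how reads were assigned. The coding parts of 1 transcript of each gene (GENCODE M21) held 1575 bases for Msl3 and 1113 for Msl3l2. A local alignment paired 746 of them in 14 blocks without gaps, and 584 were identical (78.3%, gaps not counted). The longest identical run of the whole transcripts was 32 bases. The following 90 bases (coding positions 1417 to 1506 of Msl3 and 955 to 1044 of Msl3l2) are shown because they are the most alike. Capitals mark the 8 differing bases.
Msl3 coding window: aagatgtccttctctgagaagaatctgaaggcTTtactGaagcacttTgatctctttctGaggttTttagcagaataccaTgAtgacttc
Msl3l2 coding window: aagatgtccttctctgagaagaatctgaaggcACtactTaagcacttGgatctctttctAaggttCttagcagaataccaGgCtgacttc
How reads with more than 1 possible origin were shared between the 2 genes is not given in the sources used here, and their separate values are uncertain to that extent.

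The sequences before the start sites of the writer, of the eraser Sirt1 and of the 2 related Msl3 genes are shown, because the genes differ in how often they were detected. They are the 250 bases upstream of the start in RefSeq (GRCm38.p6, the mm10 assembly), read on the gene's strand, with CpG dinucleotides in capitals. The windows are chr7:127912267-127912516 (plus strand) for Kat8, chrX:168673873-168674122 (minus strand) for Msl3, chr10:56106667-56106916 (plus strand) for Msl3l2 and chr10:63339036-63339285 (minus strand) for Sirt1.
Kat8 upstream: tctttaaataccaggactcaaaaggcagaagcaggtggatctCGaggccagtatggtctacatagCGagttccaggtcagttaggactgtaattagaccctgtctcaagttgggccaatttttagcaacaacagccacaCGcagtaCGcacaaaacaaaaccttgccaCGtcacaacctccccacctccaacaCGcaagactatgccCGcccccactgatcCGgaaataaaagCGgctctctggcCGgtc
Msl3 upstream: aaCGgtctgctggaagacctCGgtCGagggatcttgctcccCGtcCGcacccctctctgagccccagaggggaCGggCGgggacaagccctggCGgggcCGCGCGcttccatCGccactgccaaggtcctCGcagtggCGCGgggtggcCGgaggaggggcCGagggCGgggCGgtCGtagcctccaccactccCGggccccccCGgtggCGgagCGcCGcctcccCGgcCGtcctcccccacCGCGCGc
Msl3l2 upstream: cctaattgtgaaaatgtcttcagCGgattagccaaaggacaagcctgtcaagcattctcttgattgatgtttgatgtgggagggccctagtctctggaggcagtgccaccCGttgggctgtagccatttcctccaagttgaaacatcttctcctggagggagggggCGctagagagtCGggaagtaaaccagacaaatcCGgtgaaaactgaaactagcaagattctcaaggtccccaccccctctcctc
Sirt1 upstream: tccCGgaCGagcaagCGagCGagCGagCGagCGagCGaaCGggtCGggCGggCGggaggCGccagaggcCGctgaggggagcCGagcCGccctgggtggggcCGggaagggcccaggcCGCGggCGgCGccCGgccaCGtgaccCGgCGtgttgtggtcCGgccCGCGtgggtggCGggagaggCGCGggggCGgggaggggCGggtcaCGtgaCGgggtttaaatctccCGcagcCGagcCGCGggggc
These windows held 10, 30, 5 and 39 CpG dinucleotides for Kat8, Msl3, Msl3l2 and Sirt1, against a median of 6 over 32851 mouse promoters of this length. All 10 genes had an entry, and Msl3l2 alone of the 10 was below that median. The other 6 genes held between 13 (Kansl1 and Sirt2) and 26 (Kansl3).

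Kat8, the writer itself, was detected in 5 of 12 libraries. It lies on chromosome 7 from 127912516 to 127925837 on the plus strand (GENCODE M21, mm10), and exons of Prss8 overlap it on the opposite strand. Among young libraries its values were 2.85 in replicate 3 and 5.99 in replicate 4, with replicates 2 and 5 at their lowest values of 0.67 and 0.65. Among aged libraries it was 0.67 in replicate 0 and 3.57 in replicate 2, with replicates 3, 4 and 5 at the lowest values of 0.23, 0.22 and 0.16. In CASIN-treated cells it was 1.16 in replicate 2 and at the lowest values of 0.63 and 0.58 in replicates 1 and 3. The groups overlapped, and in each group Kat8 was detected exactly in the libraries with the most detected genes (the first 2 of 4 young, the first 2 of 5 aged and the first of 3 CASIN-treated). For young, aged and CASIN-treated cells the means were 2.54 ± 2.52 (SD, n = 4), 0.97 ± 1.47 (SD, n = 5) and 0.79 ± 0.32 (SD, n = 3), an order in which no neighbours differed beyond their spread. The log2 difference of young from aged cells was 1.57 (SE 1.12, 95% interval −0.90 to 4.04, limma adjusted p = 0.764), and that of CASIN-treated from aged cells was −0.19 (SE 1.22, 95% interval −2.87 to 2.50, limma adjusted p = 0.996). The first of these was 0.42 without young replicate 4 and 2.22 without aged replicate 2.

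Of the MSL genes, Msl1 and Msl3 were detected in all 12 libraries, as were 9.50% of all genes. Msl1, the scaffold, ranged from 5.07 to 7.73 in young, from 4.24 to 8.13 in aged and from 3.82 to 6.70 in CASIN-treated libraries. Its young minus aged difference was 0.15 (SE 0.96, 95% interval −1.97 to 2.28), the narrowest interval among the members detected in more than 1 library. Exons of Casc3 overlap Msl1 on the same strand, so its reads may be shared with that gene. Msl2, the ubiquitin ligase, was detected in 5 of 5 aged libraries (3.35 to 7.76) but in 2 of 4 young (5.79 and 7.04) and 2 of 3 CASIN-treated libraries (4.39 and 7.54). The detected values of the 3 groups overlapped, and the difference of young from aged cells was −2.14 (SE 1.77, 95% interval −6.04 to 1.77).

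Msl3, the chromodomain subunit, was 5.41, 4.37, 3.58 and 5.51 in young replicates 2 to 5. In aged replicates 0, 2, 3, 4 and 5 it was 4.74, 0.98, 2.38, 1.53 and 7.09, and in CASIN-treated replicates 1 to 3 it was 6.73, 0.67 and 4.85. The young values lay within the spread of the aged ones, and the lowest Msl3 value of all came from CASIN-treated replicate 2. The differences were 1.37 (SE 1.44, 95% interval −1.80 to 4.55) for young minus aged and 0.74 (SE 1.57, 95% interval −2.72 to 4.20) for CASIN-treated minus aged cells. Without CASIN-treated replicate 2, the latter difference was 2.44, and it was −0.58 without CASIN-treated replicate 1.

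Msl3l2 (chromosome 10, 56106917 to 56116880, plus strand) was detected in every aged library and in no other. In aged replicates 0, 2, 3, 4 and 5 its values were 1.46, 0.48, 1.36, 6.99 and 5.28, whereas all 4 young libraries (0.43 to 0.67) and all 3 CASIN-treated libraries (0 to 0.63) were at their lowest value. Of 22548 genes, 3 had this pattern of detection (0.0133%), namely Msl3l2, the RNA-binding protein gene Rbm4 and the ubiquitin ligase gene Rnf122; the other two are named because of their values. As levels the groups were not fully separate, since 0.48 in aged replicate 2 was under the lowest value of young replicate 2. The young minus aged difference of Msl3l2 was −2.56 on the log2 scale (SE 1.21, 95% interval −5.22 to 0.11, limma adjusted p = 0.764). The CASIN-treated minus aged difference was −2.71 (SE 1.31, 95% interval −5.61 to 0.18, limma adjusted p = 0.948), and both comparisons share the 5 aged libraries. Exact two-sided permutation tests gave p = 0.127 and p = 0.161.

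The smallest detected values of the libraries were set beside this pattern. Only 2 of the 5 aged values of Msl3l2 were above 3.62, the highest of the smallest detected values of the young libraries. The other 3 (1.46, 1.36 and 0.48) were under 1.58, the lowest of those values. After quantile normalization these are positions on a common scale and not limits of abundance. The part of detection in the pattern was not tested. With all values raised to 3.62, the differences became −1.01 in both comparisons (limma adjusted p = 0.879 and adjusted p = 1). CASIN-treated replicate 2, which detected 20013 genes with a smallest detected value of 0.02, did not detect Msl3l2. Msl3l2 lies wholly inside Tbc1d32 on the opposite strand without an exon overlap, and Tbc1d32, named for this position, was detected in 12 of 12 libraries with means for young, aged and CASIN-treated cells of 3.60 ± 1.18 (SD, n = 4), 3.94 ± 2.28 (SD, n = 5) and 3.49 ± 1.56 (SD, n = 3). Whether reads were counted by strand is not given in the sources used here. Marker lists of other cells were detected more often in aged than in young libraries too, as were all genes. The mean share of all genes detected was 34.3% in young, 62.6% in aged and 50.5% in CASIN-treated cells. For B cell markers, 29.2% of gene and library pairs were detected in young and 73.3% in aged cells. These shares were 37.5% and 83.3% for T cell and 15.6% and 52.5% for granulocyte and monocyte markers. They were 14.3% and 31.4% for erythroid, 10% and 44% for megakaryocyte and 40% and 78% for stem cell markers. For the 5 markers of bone marrow stroma and endothelium, which are not the cells sorted here, the shares of gene and library pairs detected were 45% in young, 88% in aged and 53.3% in CASIN-treated cells. The young minus aged difference was −4.12 for Lepr, −2.98 for Col1a2, −1.98 for Cxcl12, −1.78 for Cdh5 and 3.12 for Col1a1. Thus 4 of 5 were lower in young cells and 1 was higher. None passed an adjusted p of 0.05 (limma adjusted p = 0.516, 0.764, 0.813, 0.789 and 0.764). The log2 of the summed level of the 5 ran from 6.26 to 8.58 in young, 6.54 to 8.90 in aged and 7.61 to 8.27 in CASIN-treated libraries, and the part of such cells in the Msl3l2 values was not tested.

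**Figure D1:**
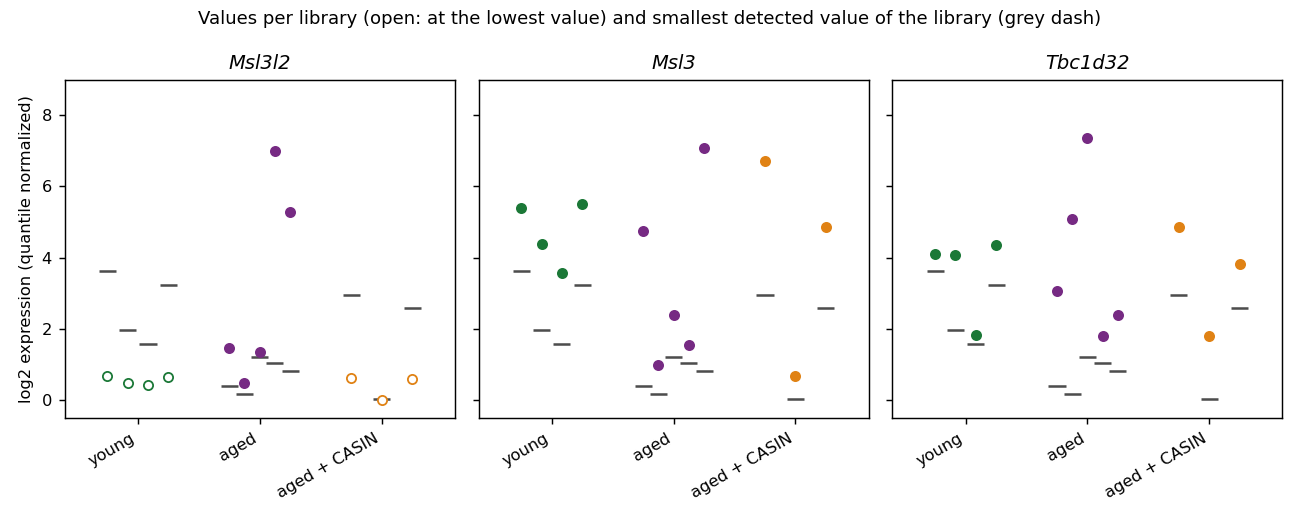
Log2 expression of Msl3l2, Msl3 and Tbc1d32 in each library of the 3 groups, young, aged and CASIN-treated (filled points, detected, and open points, at the lowest value of the library). Grey dashes give the smallest value a detected gene took in that library: 3 of 5 aged Msl3l2 values lie under the highest young dash at 3.62, while Msl3 and Tbc1d32 were detected in all 12 libraries.

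The NSL genes were detected in part of the libraries of each group. Kansl1, the scaffold, was 6.62 and 6.34 in young replicates 2 and 3 and at the lowest value in replicates 4 and 5. In aged replicates 0, 2, 3 and 4 it was 5.79, 5.36, 5.39 and 1.53, with replicate 5 at the lowest value, and of the CASIN-treated libraries only replicate 2 detected it, at 3.29. Apart from aged replicate 4, the detected aged values lay just under the detected young ones, and the mean difference of young from aged cells was −0.13 (SE 1.70, 95% interval −3.90 to 3.63). The difference of CASIN-treated from aged cells was −2.15 (SE 1.85, 95% interval −6.24 to 1.95, limma adjusted p = 0.948).

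Kansl3 was detected in 5 of 5 aged libraries, at 4.74, 1.57, 2.38, 2.23 and 1.39 in replicates 0, 2, 3, 4 and 5. It was 6.46 and 6.18 in young replicates 3 and 4 and at the lowest value in replicates 2 and 5, and CASIN-treated cells had it in replicate 2 only, at 4.10. Both detected young values were above every aged value, and both undetected young libraries were below them, so the 2 groups overlapped through the libraries without signal. The difference of young from aged cells was 1.03 (SE 1.44, 95% interval −2.14 to 4.20, limma adjusted p = 0.875), and it was 0.042 without young replicate 3 and 0.14 without young replicate 4. With undetected values left out of the fit, the difference was 3.86 (SE 1.17, limma adjusted p = 0.320), from 2 young and 5 aged values. In that fit the median young minus aged difference over all 14424 genes tested was itself 1.44. Kansl2, the third NSL subunit, was detected in 3 of 4 young (1.84 to 4.96), 4 of 5 aged (2.03 to 6.40) and 2 of 3 CASIN-treated libraries (2.34 and 3.03). Its difference was −0.57 (SE 1.21) for young minus aged and −0.99 (SE 1.32) for CASIN-treated minus aged cells.

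Of the erasers, Sirt1 was detected in 6 of 12 libraries and Sirt2 in 1. Sirt1, a nuclear deacetylase, was 8.47 in young replicate 4, its highest value of all, and at the lowest value in the other 3 young libraries. In aged cells it was 1.52, 1.36, 6.63 and 4.93 in replicates 0, 3, 4 and 5 and at the lowest value of 0.02 in replicate 2, and CASIN-treated cells had it at 3.82 in replicate 2 only. Thus 4 of 5 aged, 1 of 4 young and 1 of 3 CASIN-treated libraries showed Sirt1 RNA, and the highest value was not in the group that detected it most often. For aged, young and CASIN-treated cells the means were 2.89 ± 2.77 (SD, n = 5), 2.57 ± 3.94 (SD, n = 4) and 1.68 ± 1.86 (SD, n = 3), and no neighbours in this order differed beyond their spread. The young minus aged difference was −0.32 (SE 1.90, 95% interval −4.51 to 3.87, limma adjusted p = 0.976), and without young replicate 4 it was −2.29. CASIN-treated minus aged cells gave −1.22 (SE 2.07, 95% interval −5.78 to 3.34, limma adjusted p = 0.965). Exons of the antisense gene Gm16145 overlap Sirt1. Sirt2 was above the lowest value only in aged replicate 3, at 2.54, and 7.26% of all genes were detected in at most 1 library. Its exons overlap those of Nfkbib on the opposite strand.

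**Figure D2:**
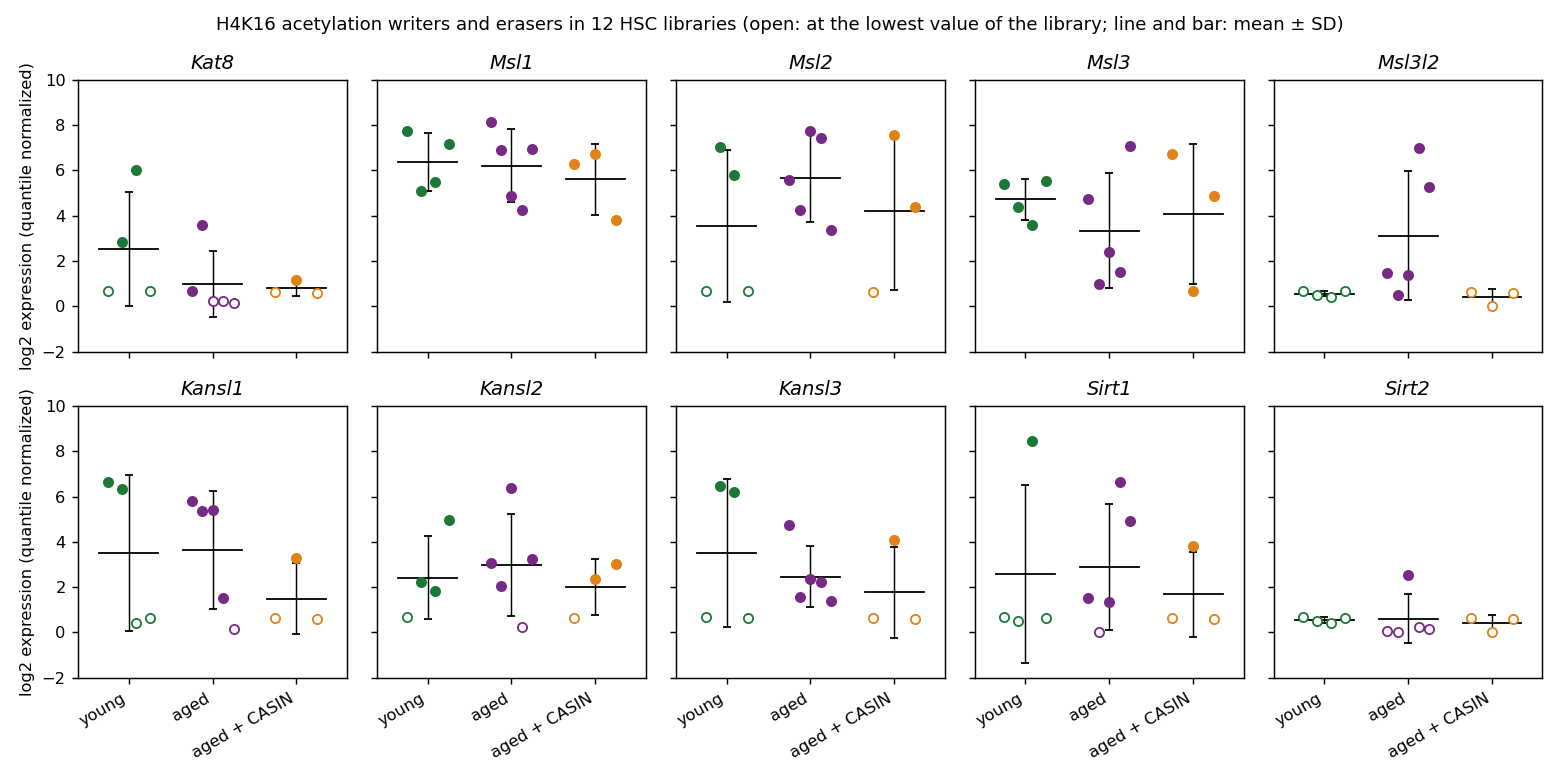
Log2 expression (quantile normalized) of the 10 genes in 4 young, 5 aged and 3 aged CASIN-treated HSC libraries. Filled points are detected values, open points lie at the lowest value of the library, and lines with bars give the mean ± SD. Msl1 and Msl3 have no open point, and Msl3l2 has filled points in aged cells only.

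Gene by gene, no member passed the test. At an adjusted p under 0.05, 0 of 10 were called by limma in each of the 3 comparisons, against 0.0177% of all genes for young against aged, 0.0222% for CASIN-treated against aged and 0.00% for young against CASIN-treated cells. At an unadjusted p under 0.05 limma also called 0 of 10 in each, against 5.33%, 4.40% and 4.29% of all genes, and exact permutation tests called 0 of 10 in each. The median log2 difference of the members was −0.09 for young minus aged, −0.84 for CASIN-treated minus aged and 0.70 for young minus CASIN-treated cells, beside −0.02, −0.04 and 0.09 over all genes. The second median was −1.51 without CASIN-treated replicate 2, −0.45 without replicate 1 and −0.48 without replicate 3, and the first was 0.36 when each library was centred on the genes detected in all 12. In CASIN-treated cells 9 of 10 members had a lower mean than in aged cells, the exception being Msl3. In CASIN-treated cells 9 of 10 also had a lower mean than in young cells, the exception being Msl2, but Msl3l2 and Sirt2 were undetected in all libraries of these 2 groups and differed only by the lowest values. With one common lowest value, 7 of 10 were lower in CASIN-treated than in young cells, 1 was higher and 2 showed no difference. When each library was so centred, which shifted the median of all genes to 0.44, 0.31 and 0.19, the members with a lower mean in CASIN-treated than in aged cells numbered 7. With all values raised to one limit of 3.62 they also numbered 7, and Kat8 and Sirt2 showed no difference. The intervals of the single genes were wide, and differences within them were not detectable with these libraries.

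**Figure D3:**
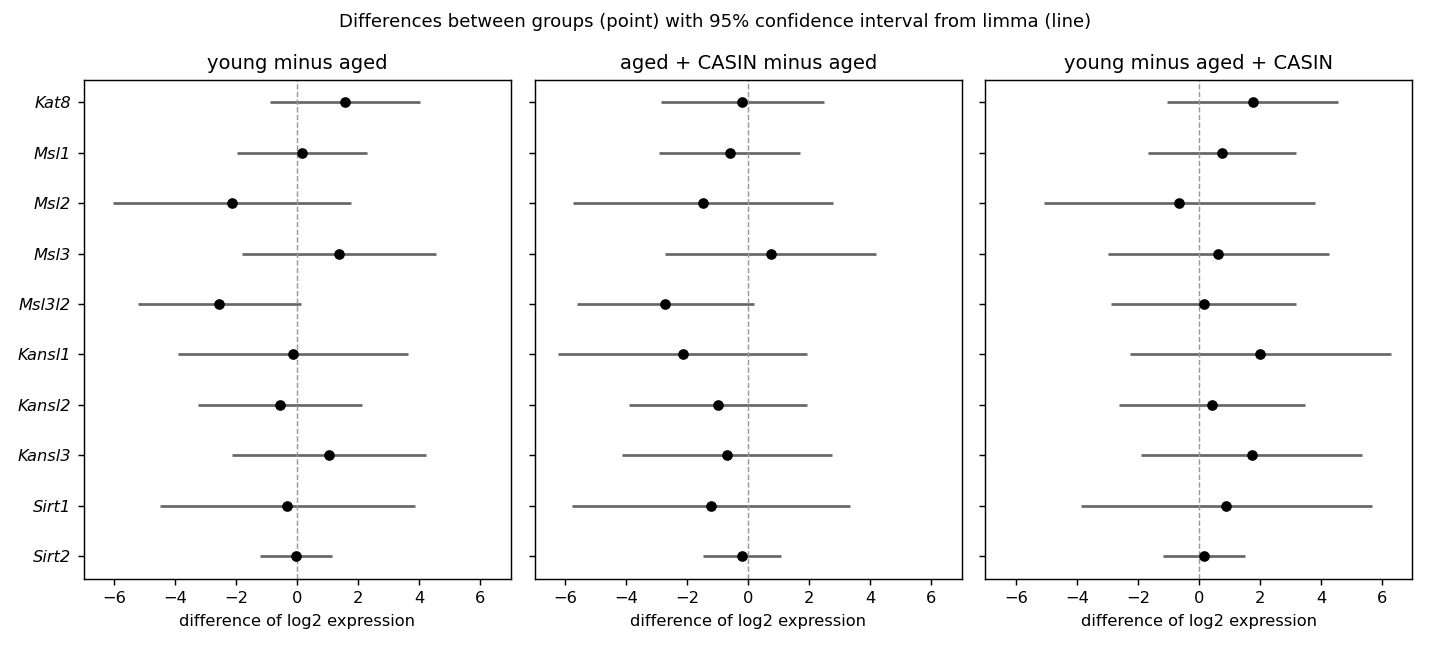
Difference of mean log2 expression (x axis) of each of the 10 genes for young minus aged, aged CASIN-treated minus aged and young minus aged CASIN-treated HSCs, with 95% confidence intervals from limma. Each of the 30 intervals includes 0, and Msl3l2 comes closest to leaving it out in the comparisons with aged cells.

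Detection of the 10 genes varied with that of all genes. They were detected in 20 of 40 gene and library pairs in young cells (50%), 40 of 50 in aged cells (80%) and 14 of 30 in CASIN-treated cells (46.7%), while the mean share of all genes detected was 34.3%, 62.6% and 50.5%. In single libraries 3, 7, 7 and 3 members were detected in young replicates 2 to 5, 9, 8, 9, 7 and 7 in aged replicates 0 and 2 to 5, and 2, 8 and 4 in CASIN-treated replicates 1 to 3. The libraries with few members were those with few genes. Of the 40 detected values in aged cells, 20 (50%) were at or under 3.62, the highest of the smallest detected values of the young libraries. For CASIN-treated libraries the corresponding value was 2.94, and 16 (40%) were at or under it. A member was detected in a median of 7.5 libraries, against 6 for all genes, and 7 of 10 members were detected in at least 6 libraries, as were 51.4% of all genes.

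**Figure D4:**
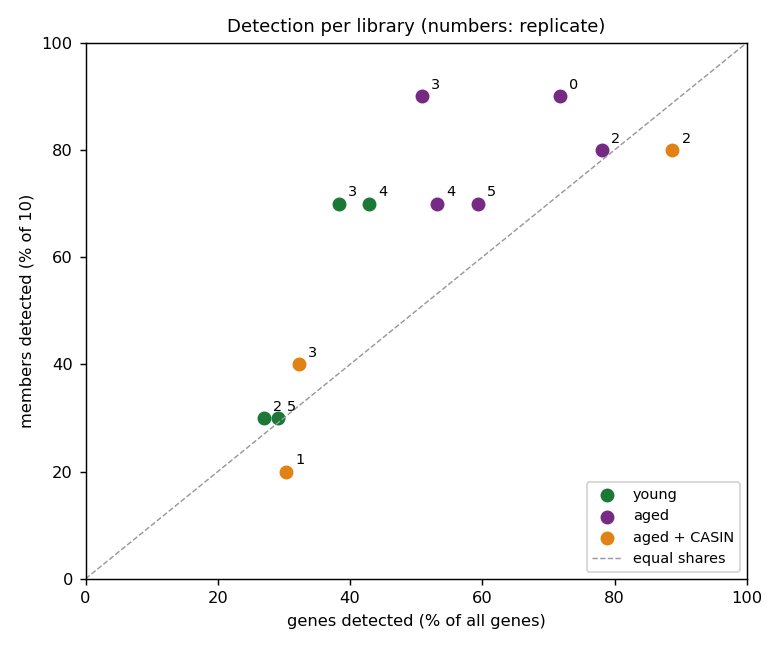
Share of the 10 genes detected (y axis, %) against the share of all 22548 genes detected (x axis, %) in each library, with the replicate number beside each point and the line of equal shares. Aged libraries lie at 70% to 90% of members and 50.8% to 78.1% of all genes, CASIN-treated replicate 2 lies farthest right at 80% and 88.8%, and the 4 libraries with 20% to 40% of members are 2 young and 2 CASIN-treated ones, each with at most 32.3% of all genes.

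RNA of the writer Kat8 and of the eraser Sirt1 was seen together in a minority of libraries. Kat8 and Sirt1 were both detected in 3 libraries (young replicate 4, aged replicate 0 and CASIN-treated replicate 2), Kat8 without Sirt1 in 2, Sirt1 without Kat8 in 3, all of them aged, and neither in 4. A full MSL set of Kat8, Msl1, Msl2 and Msl3 was detected in 5 libraries, namely all that had Kat8, and a full NSL set of Kat8 with Kansl1, Kansl2 and Kansl3 in 4 of these 5. The difference Kat8 minus Sirt1 within a library was used only to compare groups. A constant shift of the library's log2 values leaves it unchanged, but quantile normalization and the lowest value of the library do not. For young, aged and CASIN-treated cells it was −0.027 ± 1.98 (SD, n = 4), −1.92 ± 3.87 (SD, n = 5) and −0.89 ± 1.54 (SD, n = 3). Young and aged cells differed in it by 1.89 (exact permutation test, two-sided, p = 0.413), CASIN-treated and aged cells by 1.03 (exact permutation p = 0.696) and young and CASIN-treated cells by 0.86 (exact permutation p = 0.486). The first of these was 1.70 with one common lowest value and 2.91 with a pseudocount of 0.1. This measure is fixed at 0 in the 4 libraries that detected neither gene, 2 of them among the 3 CASIN-treated ones. Since Sirt2 was at the lowest value in 11 of 12 libraries, Kat8 minus Sirt2 was in effect Kat8 above the lowest value, and its differences between groups, 1.61, 0.02 and 1.60, compare no eraser RNA. Over the 6 tests of both measures, Benjamini-Hochberg adjusted values were between 0.814 and 1, and the smallest p these group sizes allow is 0.00794, 0.0179 and 0.0286.

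Other lists of genes that partner with or parallel these enzymes were read in the same limma fit, and none had a gene at an adjusted p under 0.05 in any comparison. Among 6 partners of the NSL complex, 0 were called at an unadjusted p under 0.05. Ogt, the enzyme that attaches N-acetylglucosamine to proteins, came closest, with means for young and aged cells of 4.28 ± 2.79 (SD, n = 4) and 1.18 ± 0.97 (SD, n = 5), a difference of 3.09 (SE 1.41, limma adjusted p = 0.764). Among 9 other histone acetyltransferases, 1 was called at that level, against 5.33% of all genes, for young against aged cells. This was Kat5 (Tip60), detected in 5 of 5 aged but 1 of 4 young libraries, with a difference of −2.80 (SE 1.13, limma adjusted p = 0.764). Among 11 zinc-dependent histone deacetylases, 1 was called, against 4.40% of all genes, for CASIN-treated against aged cells. This was Hdac4 (3.50, SE 1.19, limma adjusted p = 0.948), with values up to 6.15 in CASIN-treated and up to 1.38 in aged libraries. Hdac1 gave a difference of −3.63 (SE 1.73) and Hdac11 one of 1.89 (SE 0.97) for young minus aged cells, both at a limma adjusted p = 0.764. Of the 5 other sirtuins 0 were called. Sirt6 and Sirt7 were each detected in 5 of 5 aged libraries, Sirt6 in 2 of 4 and Sirt7 in 1 of 4 young libraries, and Sirt3 was at the lowest value in all young and aged libraries. Kat6a, another acetyltransferase, and Hdac9 were the only genes of these lists that all 12 libraries detected.

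The genes whose values over the 12 libraries ran most like those of Kat8 were Ttc19, Zfp820 and Ak5, with root mean square differences of 0.46, 0.71 and 0.72 after each gene was centred on its own mean. The median over the 11578 genes searched, all detected in at least 6 libraries, was 2.67. Those most like Sirt1 were Vstm4 (0.83), Opn4 (1.04) and Vmn1r66 (1.07), against a median of 3.33. The named genes were picked as the closest, so a difference under the median was fixed in advance. A gene with the same value in all 12 libraries would differ by 1.71 from Kat8 and by 2.69 from Sirt1. Each named gene shared the detection of Kat8 or Sirt1 in 11 of 12 libraries. The part of detection in this likeness was not tested.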

How the data were processed

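RNA sequencing libraries were made from sorted cells with a single-cell kit that uses selective primers and PCR. Per the methods, the paired ends were filtered by the authors in trim galore at a phred threshold of 20, placed on mm10 with TopHat and RefSeq models, and processed by Cufflinks. The deposited values are log2 expression for 22548 genes in 12 samples, quantile normalized by the authors. The step from Cufflinks to these values and the treatment of strand are not given in the sources used here. Quantile normalization removes differences in total RNA and gives each undetected gene the lowest value of its library. No counts were used, so depth and counting error are unknown.

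Values were used as deposited. The 3 groups were fitted together with limma 3.58.1 in R 4.3.3 (two-sided, no filter, Benjamini-Hochberg over all 22548 genes, threshold 0.05), and fold changes are differences of log2 values. The fit was also run on these values shuffled among libraries within each gene, with a known shift added to some genes in young libraries. The outcome of that run is not given here. Exact permutation tests ran over all assignments of libraries to the groups compared, with numpy 2.4.6 in Python 3.11.15. Sensitivity was examined with a common lowest value, centring, a pseudocount of 0.1, undetected values as missing, detection in at least 6 samples, detection above a log2 value of 1, array weights, limma-trend, fits of 2 groups, a detection covariate, the replicate block and each library left out. One common detection limit was added after the data were seen. The members and lists were chosen with earlier results of these data known. Named genes were the 10 members, up to 2 genes per list and comparison with the smallest p, and the 3 genes most like Kat8 and Sirt1. Rbm4, Rnf122, Tbc1d32, Kat6a, Hdac9 and the markers named singly were chosen after their values were seen. Replicate numbers come from the labels, and no batch is named. Sequences are from RefSeq (GRCm38.p6) and GENCODE M21. Authors' own test results were not used.

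The marker lists held 10 stem cell, 6 B cell, 6 T cell, 8 granulocyte and monocyte, 7 erythroid, 5 megakaryocyte and 5 stroma and endothelium genes. None had a gene at an adjusted p under 0.05. At an unadjusted p under 0.05 limma called 2 stroma genes in young against aged cells, 1 megakaryocyte gene (Pf4) in CASIN-treated against aged cells and 2 stroma genes in young against CASIN-treated cells. Over all genes the shares called were 5.33%, 4.40% and 4.29%, in the same order of comparisons. The beta-globin genes Hbb-b1, Hbb-bs and Hbb-bt were at the lowest value in all 12 libraries.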

Additional observations from a re-analysis of the deposited data

Results flagged for a closer look

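Of 24 groups of 4 or 5 libraries examined, 3 had 1 library far from the others. How often chance gives such a flag is not known here, since most values in the flagged groups were undetected. Kat8 in aged cells was 3.57 in replicate 2, with the other 4 libraries between 0.16 and 0.67. Sirt1 in young cells was 8.47 in replicate 4, with the other 3 libraries at their lowest values. Sirt2 in aged cells was 2.54 in replicate 3, with the other 4 at their lowest values. Each flagged value was a detected value beside undetected ones, wholly or for most of the group. Without aged replicate 2 the young minus aged difference of Kat8 was 2.22 (without young replicate 4 it was 0.42), without young replicate 4 that of Sirt1 was −2.29, and without aged replicate 3 that of Sirt2 was 0.44.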

How the results depend on the processing

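No member passed an adjusted p of 0.05 under any alternative. Of 315 log2 differences recomputed with all libraries, 274 kept their direction, 7 were 0 and 34 reversed, and of 240 with 1 library left out, 207 kept it and 33 reversed, none crossing the adjusted threshold. The count of members at an unadjusted p under 0.05 went from 0 to 1 for young against aged cells with a pseudocount of 0.1, array weights or a detection covariate (Msl3l2) and with undetected values as missing (Kansl3), and for CASIN-treated against aged cells with the pseudocount or the covariate (Msl3l2). Over all genes these settings called, in this order, 1719, 1346 and 1125 of 22548 and 1918 of 14424 for young against aged cells. For CASIN-treated against aged cells the pseudocount and the covariate called 1296 and 1137 of 22548. Leaving out single libraries moved the count of members between 0 and 1 in both comparisons with aged cells, by Msl3l2 without aged replicate 0, 2 or 3 (limma adjusted p between 0.760 and 0.932). Without these replicates, 1137, 1141 and 1203 of 22548 genes were called for young against aged cells. For CASIN-treated against aged cells the numbers were 936, 965 and 1000. The causes were not tested. Msl3l2 and Sirt2 have no value with undetected values as missing or with detection in at least 6 libraries, nor has Kat8 with the latter, since they were detected in too few libraries.

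For young minus aged cells the following reversed. With undetected values as missing, Msl2 was 0.74, Kansl1 1.96 and Sirt1 4.86, beside a median of 1.44 over all genes. With centring, Kansl1 was 0.32, Sirt1 0.13 and Sirt2 0.41. With the covariate, Msl3 was −0.81, Kansl1 1.18 and Sirt1 0.72. With the common detection limit, Kansl1 was 0.30 and Sirt1 0.35. Kansl1 was 0.026 with array weights, and Sirt2 was 0.72 with the pseudocount. For CASIN-treated minus aged cells, Msl2 was 0.29, Kansl3 1.64 and Sirt1 0.21 with undetected values as missing. Kat8 was 0.16 and Sirt2 0.15 with centring, Kat8 0.28 with the pseudocount, and Kat8 0.36, Msl3 −0.20 and Kansl3 0.21 with the covariate. For young minus CASIN-treated cells, Msl2 was 0.45 with undetected values as missing, beside a median of 1.11 over all genes. Msl3 was −0.34 with the common detection limit, and with the covariate Msl2 was 0.50, Msl3 −0.61, Msl3l2 −0.42 and Sirt2 −0.16. Kat8 minus Sirt2 was −0.044 for CASIN-treated minus aged cells with a common lowest value.

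With 1 library left out, young minus aged differences ran from −0.34 to 0.63 for Msl1, −1.17 to 0.89 for Kansl1, −1.41 to 0.28 for Kansl2, −2.29 to 0.61 for Sirt1 and −0.19 to 0.44 for Sirt2. CASIN-treated minus aged differences ran from −0.39 to 0.46 for Kat8, −1.16 to 0.28 for Msl1, −3.16 to 0.29 for Msl2, −0.58 to 2.44 for Msl3 and −0.35 to 0.28 for Sirt2. Young minus CASIN-treated differences ran from −0.13 to 1.31 for Msl1, −2.43 to 1.03 for Msl2, −1.07 to 1.96 for Msl3, −0.42 to 1.01 for Kansl2, −1.07 to 1.97 for Sirt1 and −0.042 to 0.27 for Msl3l2 and Sirt2. Kat8 minus Sirt1 ran from −0.090 to 2.40 for CASIN-treated minus aged and from −0.027 to 1.68 for young minus CASIN-treated cells, and Kat8 minus Sirt2 from −0.65 to 0.81 for CASIN-treated minus aged cells.

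What a shared replicate number marks is not stated. The deviations of same-numbered libraries from their group means correlated between −0.03 and 0.06, which cannot show whether such libraries share an origin. With the replicate number as a block, 1 member, Kansl1, was at an unadjusted p under 0.05 for CASIN-treated against aged cells and for young against CASIN-treated cells. Over all genes, 899 and 1075 of 22548 were called in these comparisons. The block reversed Kansl1 (0.40) for young minus aged cells, Kansl3 (0.37), Sirt1 (1.23), Kat8 minus Sirt1 (−2.55) and Kat8 minus Sirt2 (−0.044) for CASIN-treated minus aged cells, and Msl3l2 (−1.02), Kansl2 (−0.13) and Sirt1 (−1.90) for young minus CASIN-treated cells.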
